A study of Mus musculus with 11 samples.

Results

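Cartpt, Mmp17, Satb1, Spp1, Kcng4, Foxp1, Foxp2, Tbr1 and Jam2 are 9 mouse genes used to tell subtypes of retinal ganglion cells apart. They were found in the count tables by the Ensembl identifiers of their symbols, 9 genes of 47069 in all. All 9 passed the filter on low counts, which 18188 genes passed. The rule that picks them uses gene names only.

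Retinal ganglion cells carry the output of the eye to the brain, and they fall into many subtypes that respond to different features of the visual scene and send axons to different targets. Before the eyes open, waves of spontaneous firing spread through the retina, and neighbouring ganglion cells fire together. Each subtype is recognised by a combination of genes rather than by a single gene. Cartpt, Mmp17 and Satb1 mark ON-OFF direction-selective cells, Spp1 and Kcng4 mark the large alpha cells, Foxp2 and Foxp1 mark the F-type cells, and Jam2 and Tbr1 mark the J cells, with Tbr1 also in other OFF types.

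The title of the study concerns perinatal correlated activity in the retina and visual axons that reach nuclei outside image formation. The Kir2.1 mice carried a transgene fusing human Kir2.1 to eYFP. Kir2.1 is a potassium channel of the inward rectifier family that lowers excitability. The transgene is driven by a CAG promoter once Cre removes a floxed STOP cassette. Cre came from the Brn3b-cre line (Brn3b is the protein of Pou4f2), so the channel was directed to cells with Brn3b and not to each of the subtypes by its own marker. The 11 libraries were 2 wild-type and 3 Kir2.1 libraries from postnatal day 4 (P4), and 3 wild-type and 3 Kir2.1 libraries from postnatal day 8 (P8), all of strain C57BL/6. The control is labelled wild type, while the extraction protocol names Brn3b-cre mice, which would carry Cre without the channel. The later age is P8 in the titles and age field and P11 in that protocol. Retinal ganglion cells are given as the source, yet the protocol describes dissociation of whole retinas with no sorting step. Nothing says that replicates came from separate animals, so the p-values measure only the spread between these libraries, which may be technical.

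Gene counts per library ran from 9362215 to 12478838. The gene Kcnj2, the mouse counterpart of the transgene, did not separate the genotypes, at 5.81 to 10.6 counts per 1000000 gene counts (CPM) in wild type and 2.46 to 6.42 CPM in Kir2.1 at P4, then 3.74 to 17.2 and 4.91 to 17.1 CPM at P8. These counts are of mouse genes, so they do not check directly for the human transgene. On the first principal component, which separated the ages and held 41.6% of the variance, P8 libraries lay at 37.8 to 54.0 and P4 libraries at -74.6 to -55.4, apart from wild-type P4 replicate 2 at -16.4. Kir2.1 P8 replicate 2 had counts in 31325 genes, against 22609 to 24591 in each of the other libraries. Wild-type P8 replicates 1, 2 and 3 differed widely in rod genes, with sums over 10 genes of 810, 3283 and 7351 CPM. The source label was set against marker genes. Rbpms, an RNA-binding protein found throughout ganglion cells, had 74.9 ± 18.5 CPM (SD, n = 2) in wild-type libraries at P4 and 6.41 ± 4.11 CPM (SD, n = 3) at P8, while the summed level of 11 amacrine genes was 1679 to 4080 CPM in the wild-type libraries. The libraries held transcripts of many retinal cell types.

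In total level, the 9 genes covered a wide range. Counts for the whole set ran from 0 for Kcng4 in Kir2.1 P4 replicate 1 to 2087 for Jam2 in wild-type P8 replicate 3. To compare genes, CPM was divided by the length of each gene's joined exons in kilobases. On that scale the mean level over the 11 libraries was 21.1 CPM per kilobase for Cartpt, 18.3 for Jam2, 5.76 for Satb1, 4.12 for Spp1, 3.71 for Foxp1, 2.97 for Mmp17, 0.781 for Foxp2, 0.735 for Tbr1 and 0.384 for Kcng4. Each of the 8 neighbouring pairs in this order overlapped in its range over libraries, so only distant positions are separate. Satb1, at 5.33 to 6.73 CPM per kilobase, lay above Foxp2, Tbr1 and Kcng4 in every library, since those reached at most 1.40, 1.77 and 1.05.

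The order of the wild-type group means differed between ages below Cartpt and Jam2. From high to low it was Spp1, Satb1, Foxp1, Mmp17, Foxp2, Tbr1 and Kcng4 at P4, and Satb1, Mmp17, Spp1, Foxp1, Tbr1, Kcng4 and Foxp2 at P8. In wild type, Foxp2 went from 1.19 CPM per kilobase at P4 to 0.396 at P8, Tbr1 from 0.721 to 0.926 and Kcng4 from 0.167 to 0.585. In Kir2.1, Foxp2 was at 1.32 and 0.352 CPM per kilobase and Jam2 at 12.7 and 30.2. Satb1 stayed between 5.50 and 5.88 in all 4 group means.

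**Figure D1:**
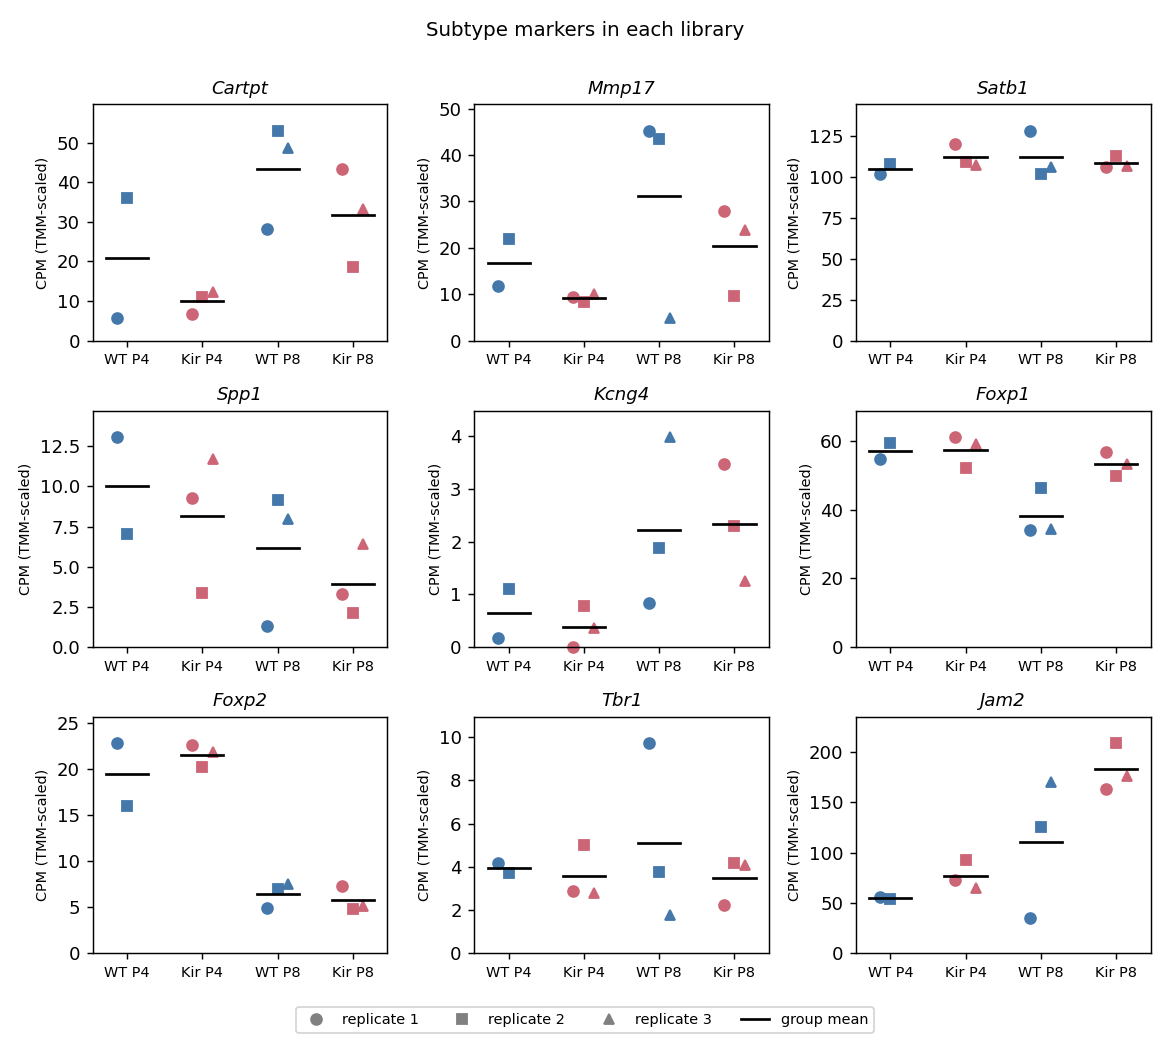
Level in CPM (TMM-scaled, vertical axis) of the 9 markers in each of the 11 libraries, by group (horizontal axis), where a symbol stands for a library and its shape for the replicate number, and the bar is the group mean. Foxp2 at P8 (4.80 to 7.48 CPM) lies below all P4 libraries (16.1 to 22.8 CPM), Satb1 is level at 101 to 128 CPM, and wild-type P8 libraries are widely spread for Mmp17 and Jam2.

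None of the 9 markers passed an adjusted p of 0.05 between the genotypes at either age in edgeR's quasi-likelihood test. Cartpt, Mmp17, Spp1 and Tbr1 had lower means in Kir2.1 at both ages and Jam2 had higher means at both ages, without passing that threshold. Foxp1 was level between the genotypes at P4 (log2 fold change 0.01) and had a higher mean in Kir2.1 at P8, also without passing. With age, Foxp2 fell in both genotypes, and Jam2 rose in Kir2.1. The Foxp2 call in wild type was lost under 2 alternatives and the Jam2 call under 7, given with each gene. The set had no common direction, with a median genotype log2 fold change (Kir2.1 relative to wild type) of -0.15 at P4 and -0.17 at P8, beside 0.01 and 0.00 for all genes tested.

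The background to these counts was as follows. At P4, 0% of genes passed the adjusted threshold (smallest edgeR adjusted p = 0.458) and 7.22% had an unadjusted p under 0.05, against 0 of the 9 markers. At P8, 0% passed (smallest edgeR adjusted p = 0.699) and 6.82% had an unadjusted p under 0.05, against 1 of the 9, Foxp1. For the difference of the genotype effects between ages, 0% passed (smallest edgeR adjusted p = 1) and 3.09% had an unadjusted p under 0.05, again against 1 of 9, Foxp1. The 2 groups' CPM values did not overlap for 26.7% of genes at P4 and for 10.6% at P8, against 2 of 9 markers (Jam2 higher and Mmp17 lower in Kir2.1) and 1 of 9 (Foxp1 higher). These counts are near the background.

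Between P4 and P8, 4.39% of all genes were called in wild type (0.803% higher and 3.58% lower at P8), and 1 of the 9 markers, Foxp2, was among them. In Kir2.1, 16.7% were called (7.93% higher and 8.73% lower), and 2 of the 9 were, Jam2 higher and Foxp2 lower. The ages did not overlap for 31.1% of genes in wild type, against 2 of 9 markers, Foxp1 and Foxp2, both lower at P8. They did not overlap for 38.1% of genes in Kir2.1, against 4 of 9, with Cartpt, Kcng4 and Jam2 higher and Foxp2 lower. The median log2 change with age of the 9 was 0.35 for wild type and -0.03 for Kir2.1, beside 0.03 and 0.00 for all genes. The genotype and age comparisons share libraries, so their values are not independent of each other. In whole-retina RNA, fewer cells of a type and less RNA per cell cannot be told apart.

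**Figure D2:**
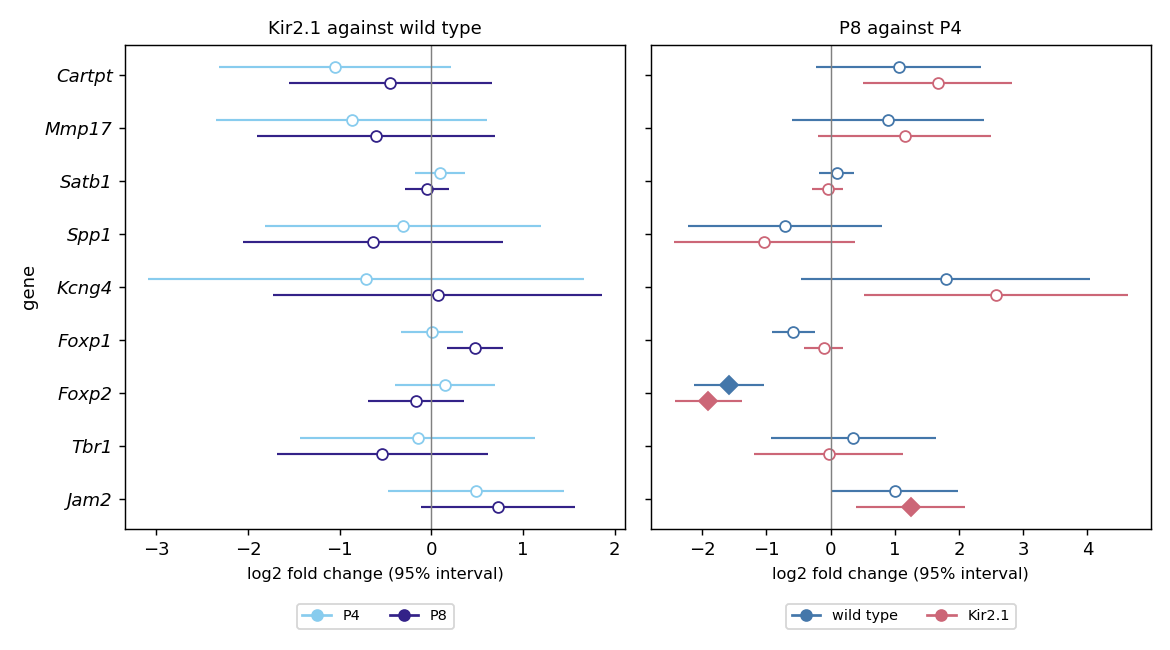
Log2 fold change (horizontal axis, with 95% intervals from edgeR) of each marker (vertical axis), Kir2.1 over wild type on the left and P8 over P4 on the right, where filled diamonds passed an adjusted p of 0.05 and open circles did not. No genotype change is filled, and the filled age changes are Foxp2 in both genotypes (-1.58 and -1.9) and Jam2 in Kir2.1 (1.25).

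Among the markers of direction-selective cells, Cartpt and Mmp17 varied strongly between replicates and Satb1 hardly did. Cartpt (ENSMUSG00000021647, chromosome 13, 99898489 to 99901091, minus strand, GRCm38) encodes the precursor of the CART neuropeptides. Its level was 5.64 and 36.0 CPM in wild-type P4 replicates 1 and 2, and 6.79, 11.1 and 12.2 CPM in Kir2.1 P4 replicates 1 to 3. P8 levels were 28.2, 53.1 and 48.6 CPM in wild type and 43.4, 18.6 and 33.3 CPM in Kir2.1. Wild-type P4 replicate 2 alone reached the P8 range, and the genotypes overlapped at both ages. For Kir2.1 relative to wild type this gave a log2 fold change of -1.05 ± 0.58 (SE; edgeR adjusted p = 0.716) in the P4 libraries and of -0.45 ± 0.51 (edgeR adjusted p = 0.833) in the P8 libraries. With no filter on low counts, edgeR called the P4 value (-1.06 ± 0.23, adjusted p = 0.000987), where the standard error was smaller and the fold change nearly the same.

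Leaving out wild-type P4 replicate 2 turned the P4 value of Cartpt to 0.83, and leaving out wild-type P4 replicate 1 moved it to -1.85. The P8 value ran from -0.74 without Kir2.1 replicate 1 to -0.18 without Kir2.1 replicate 2. With age, Cartpt changed by 1.06 ± 0.59 on the log2 scale in wild type (edgeR adjusted p = 0.364) and by 1.67 ± 0.53 in Kir2.1 (edgeR adjusted p = 0.052), where all P8 libraries lay above all P4 libraries. The wild-type change was 0.27 without wild-type P4 replicate 1 (edgeR adjusted p = 0.968) and 2.94 without wild-type P4 replicate 2, where it passed (edgeR adjusted p = 0.00829). With no filter it also passed (1.06, edgeR adjusted p = 0.000207, the lowest of the alternatives). In Kir2.1, the change passed without P8 replicate 2, at 1.94 (edgeR adjusted p = 0.0494), and with DESeq2, no filter, the replicate block and only the compared groups, in a range of 1.71e-13 to 0.183 over the alternatives.

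Cartpt is known as a target of CREB, a transcription factor that neuronal activity switches on through cyclic AMP and calcium, and for that reason the letters of its usual site were looked for. The window was the 250 bases before each RefSeq gene start (GRCm38.p6), held for 6 of the 9 genes in 13 windows. TGACGTCA, which reads the same on both strands, was in 1 of the 13 windows, that of Cartpt, 112 bases before the start, and in 1.55% of 32851 windows of all genes. TAATTA, a core read by many homeodomain proteins and also the same on both strands, was in 3 of the 13, for Tbr1, Spp1 and Foxp1, and in 4.84% of all windows. The motifs were chosen with the results known. The matches are printed as 30 bases of the gene's own strand with the motifs in capitals. They are from Cartpt (chr13:99900777-99900806, minus strand) and Tbr1 (chr2:61804415-61804444, plus strand). Both lie within the GENCODE span of their gene, downstream of its outermost start. The Tbr1 window holds the motif at 33 and at 18 bases before the RefSeq start.
Cartpt: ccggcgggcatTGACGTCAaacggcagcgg
Tbr1: tatccTAATTAatgtctatcTAATTAaatt
A match describes the letters in the window, and binding there was not measured.

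Mmp17 (ENSMUSG00000029436, chromosome 5, 129584169 to 129611099, plus strand) encodes a matrix metalloproteinase anchored to the cell membrane. Wild-type P4 replicates 1 and 2 had 11.8 and 21.8 CPM of Mmp17, and Kir2.1 P4 replicates 1 to 3 had 9.39, 8.21 and 10.1 CPM. P8 levels were 45.3, 43.5 and 4.96 CPM in wild type and 27.8, 9.71 and 23.8 CPM in Kir2.1. At P4 all Kir2.1 libraries were below both wild-type libraries. At P8 wild-type replicate 3 had the lowest value of all 11 libraries and the other wild-type P8 libraries had the highest. Its genotype log2 fold change was -0.87 ± 0.68 (edgeR adjusted p = 0.791) at P4, and -0.60 ± 0.60 (edgeR adjusted p = 0.806) at P8.

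Without wild-type P8 replicate 3, the P8 value of Mmp17 was -1.11 ± 0.35, and 219 genes in place of 0 were called (edgeR adjusted p = 0.108 for Mmp17, in a range of 0.108 to 1 over the alternatives). The P8 value was -0.24 without wild-type replicate 1, -0.29 without wild-type replicate 2, -0.89 without Kir2.1 replicate 1, -0.27 without Kir2.1 replicate 2 and -0.72 without Kir2.1 replicate 3. Without wild-type P4 replicate 2, the P4 value was -0.35. In the authors' deposited table for P8, Mmp17 had a log2 fold change of -1.09 and an adjusted p of 0.0231. It was the 1 marker called there, where the authors' deposited table calls 7.27% of its 13396 genes. For Mmp17 the authors' P8 value was nearer the fit without wild-type P8 replicate 3 (-1.11) than the full fit (-0.60). The authors' table, that fit and the full fit gave -1.01, -0.94 and -0.53 for Tbr1, and 1.176, 1.184 and 0.73 for Jam2. Each of the other markers also lay nearer the fit without that library. Whether the authors' table used all P8 libraries was not tested. In the authors' deposited table for P4, Mmp17 was at -0.98 (adjusted p = 0.135), and none of the markers was called, where 2.27% of 13830 genes were. With age Mmp17 changed by 0.89 ± 0.68 in wild type (edgeR adjusted p = 0.537) and by 1.15 ± 0.62 in Kir2.1 (edgeR adjusted p = 0.241). The wild-type change ran from 0.51 to 1.40 without 1 library each. With no filter both passed (edgeR adjusted p = 0.0119 and 1.36e-05), as did the Kir2.1 change with only the compared groups (edgeR adjusted p = 0.0193).

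Satb1 (ENSMUSG00000023927, chromosome 17, 51736187 to 51833290, minus strand) encodes a protein that organises chromatin loops and regulates transcription. It was the steadiest marker, at 101 and 108 CPM in wild type and 120, 109 and 107 CPM in Kir2.1 at P4. P8 levels were 128, 101 and 106 CPM in wild type and 106, 113 and 107 CPM in Kir2.1. The groups overlapped in each comparison. Between genotypes its log2 fold change was 0.10 ± 0.12 at P4, with a 95% interval of -0.17 to 0.37, and -0.04 ± 0.11 at P8, with an interval of -0.29 to 0.20. Exons of Satb1 share 156 bases with the transcript Gm36931 on the same strand and 128 with Gm6934 on the opposite strand, and reads from the shared bases cannot be assigned to Satb1 alone, those with Gm6934 because no strand setting is stated.

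The markers of alpha cells had wide errors, and Kcng4 was the lowest of the 9 per kilobase. Spp1 (ENSMUSG00000029304, chromosome 5, 104435118 to 104441050, plus strand) encodes osteopontin, a secreted phosphoprotein that microglia also make. It was at 13.1 and 7.02 CPM in wild type and 9.30, 3.38 and 11.7 CPM in Kir2.1 at P4, then 1.28, 9.19 and 7.97 CPM in wild type and 3.31, 2.09 and 6.43 CPM in Kir2.1 at P8. Wild-type P8 replicate 1 was the lowest library, and the genotypes overlapped at both ages. Its genotype log2 fold change was -0.31 ± 0.69 (edgeR adjusted p = 0.929) at P4, and -0.64 ± 0.65 (edgeR adjusted p = 0.812) at P8. The age change was -0.70 ± 0.69 for wild type and -1.03 ± 0.65 for Kir2.1 (edgeR adjusted p = 0.645 and 0.327). Without 1 library each, the P8 genotype value ran from -1.178 (Kir2.1 replicate 3 left out) to -0.23 (wild-type replicate 2), and the age change from -1.11 to -0.19 in wild type and from -1.57 to -0.67 in Kir2.1. With no filter the Kir2.1 age change passed (edgeR adjusted p = 0.0336). The exons of Spp1 share 309 bases with the transcript Gm42793 on the same strand.

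Kcng4 (ENSMUSG00000045246, chromosome 8, 119623854 to 119635680, minus strand) encodes a modifier subunit of voltage-gated potassium channels. Its counts were 2 and 13 in wild type and 0, 10 and 4 in Kir2.1 at P4, and 9, 22 and 49 in wild type and 42, 22 and 14 in Kir2.1 at P8. In Kir2.1, all P8 libraries were above all P4 libraries, and the ages overlapped in wild type. The log2 change with age was 1.80 ± 1.03 in wild type (edgeR adjusted p = 0.387) and 2.58 ± 0.94 in Kir2.1 (edgeR adjusted p = 0.0849). Between genotypes the value was -0.71 ± 1.09 at P4 and 0.07 ± 0.83 at P8. The 95% interval at P4 ran from -3.09 to 1.67. DESeq2 called the Kir2.1 age change (2.62, adjusted p = 0.0246), and edgeR did with no filter and with only the compared groups, in a range of 0.00443 to 0.229 over the alternatives. The wild-type age change ran from 1.01 without wild-type P4 replicate 1 to 3.63 without wild-type P4 replicate 2.

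Of the F-type markers, Foxp2 fell with age in both genotypes, and Foxp1 was lower at P8 in wild type than in Kir2.1 without passing the adjusted threshold. Foxp2 (ENSMUSG00000029563, chromosome 6, 14901349 to 15441977, plus strand) encodes a forkhead transcription factor. It was at 22.8 and 16.1 CPM in wild type and 22.7, 20.3 and 21.9 CPM in Kir2.1 at P4. P8 levels were 4.95, 6.97 and 7.48 CPM in wild type and 7.29, 4.80 and 5.18 CPM in Kir2.1. All 6 P8 libraries lay below all P4 libraries. The log2 value fell by 1.58 ± 0.25 in wild type (edgeR adjusted p = 0.00379) and by 1.9 ± 0.24 in Kir2.1 (edgeR adjusted p = 0.000345), 2.999-fold and 3.74-fold.

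The wild-type change of Foxp2 was no longer called without wild-type P4 replicate 1, at -1.31 (edgeR adjusted p = 0.0906), nor in a fit of the wild-type libraries alone, at -1.60 (edgeR adjusted p = 0.0763). The range over its alternatives was 8.9e-07 to 0.0906. In Kir2.1 it passed under every alternative run, with adjusted p from 5.21e-12 (DESeq2) to 0.00356 (edgeR). The genotypes did not separate, at 0.15 ± 0.25 for P4 (edgeR adjusted p = 0.9) and -0.17 ± 0.24 for P8 (edgeR adjusted p = 0.876), with 95% intervals of -0.39 to 0.69 and -0.69 to 0.36. The difference between the age changes was -0.32 ± 0.35 (edgeR adjusted p = 1).

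Foxp1 (ENSMUSG00000030067, chromosome 6, 98925338 to 99522721, minus strand) encodes a related forkhead factor, present in a part of the Foxp2 cells. It was at 54.8 and 59.4 CPM in wild type and 61.1, 52.0 and 59.1 CPM in Kir2.1 at P4, where the groups overlapped. P8 levels were 33.9, 46.3 and 34.4 CPM in wild type and 56.7, 49.7 and 53.4 CPM in Kir2.1, so that each Kir2.1 library was above each wild-type library. The log2 fold change at P8 was 0.48 ± 0.14, with an unadjusted edgeR p of 0.00494, which ranked 68 of 18188 and gave an adjusted p of 0.699. At P4 it was 0.01 ± 0.15 (edgeR adjusted p = 0.995). The difference of the genotype effects between ages was 0.47 ± 0.21, with an unadjusted p of 0.0421 and an edgeR adjusted p of 1.

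The P8 value of Foxp1 kept its sign under all alternatives run, from 0.40 to 0.64, and its adjusted p ran from 0.156 to 1. The authors' deposited table for P8 gives it a log2 fold change of 0.44 and an adjusted p of 0.246. With age, Foxp1 changed by -0.58 ± 0.15 in wild type (edgeR adjusted p = 0.0561), where both P4 libraries were above all P8 libraries, and by -0.11 ± 0.14 in Kir2.1 (edgeR adjusted p = 0.672). The wild-type age change passed with DESeq2 (-0.58, adjusted p = 0.0137), with no filter (edgeR adjusted p = 0.035) and without wild-type P8 replicate 2 (-0.74, edgeR adjusted p = 0.0202), in a range of 0.0137 to 0.306 over the alternatives. Exons of Foxp1 share 300 bases with Gm20696 and 135 with Gm49348, a microRNA gene, both on the same strand.

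Of the markers of J cells, Tbr1 was called in no comparison of the main fit and Jam2 only with age in Kir2.1. Whether their changes differed was not tested. Tbr1 (ENSMUSG00000035033, chromosome 2, 61802930 to 61814114, plus strand) encodes a T-box transcription factor. It was at 4.19 and 3.72 CPM in wild type and 2.88, 4.99 and 2.80 CPM in Kir2.1 at P4, then 9.71, 3.74 and 1.79 CPM in wild type and 2.24, 4.17 and 4.11 CPM in Kir2.1 at P8. The highest and the lowest of the 11 values were both wild-type P8 libraries, replicates 1 and 3. Between genotypes the value was -0.15 ± 0.59 (edgeR adjusted p = 0.961) at P4, and -0.53 ± 0.53 (edgeR adjusted p = 0.806) at P8, and without wild-type P8 replicate 1 the latter turned to 0.33. With age it was 0.35 ± 0.59 in wild type, which turned to -0.53 without that library, and -0.03 ± 0.53 in Kir2.1.

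Jam2 (ENSMUSG00000053062, chromosome 16, 84774123 to 84825928, plus strand) encodes a junctional adhesion molecule, which vascular endothelium also makes. It was at 56.3 and 53.5 CPM in wild type and 72.5, 93.0 and 65.2 CPM in Kir2.1 at P4. P8 levels were 35.5, 125 and 170 CPM in wild type and 164, 209 and 176 CPM in Kir2.1. All Kir2.1 libraries were above both wild-type libraries at P4. At P8 the genotypes overlapped at wild-type replicate 3, and wild-type replicate 1 had the lowest value of the 11. The genotype log2 fold change was 0.49 ± 0.44 (edgeR adjusted p = 0.817) at P4, and 0.73 ± 0.39 (edgeR adjusted p = 0.699) at P8. The P8 value was 0.31 without wild-type replicate 1 and 1.184 without wild-type replicate 3 (edgeR adjusted p = 0.109), and with no filter edgeR called it (0.72, adjusted p = 0.000491).

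With age, Jam2 rose by 1.25 ± 0.39 on the log2 scale in Kir2.1 (edgeR adjusted p = 0.0477), 2.38-fold. The value was close to the threshold, and it was not called in any of the 6 fits without a Kir2.1 library, with values from 1.14 to 1.40 and edgeR adjusted p from 0.074 to 0.15, nor with the replicate number as a block (1.24, edgeR adjusted p = 0.0515). Over all alternatives the adjusted p ran from 9.2e-15 to 0.15. In wild type it was 1.004 ± 0.45 (edgeR adjusted p = 0.241), and without wild-type P8 replicate 1 it was 1.41 and passed (edgeR adjusted p = 0.00264), while without wild-type P8 replicate 3 it was 0.55 (edgeR adjusted p = 0.502). It also passed with no filter (edgeR adjusted p = 3.62e-07). The difference between the age changes was 0.24 ± 0.58 (edgeR adjusted p = 1).

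Beside the 9 markers, 17 genes found across ganglion cells were taken as a list, and all 17 passed the filter. Between genotypes at P4, 0 of 17 were called, with a median log2 fold change of -0.87. All 17 were negative, and 13 had an unadjusted p under 0.05, against 0 of the 9 subtype markers and 7.22% of all genes. In the lists of other cells 0 genes were called at P4. Values were negative for 9 of 10 vascular genes (median -1.07, 1 with an unadjusted p under 0.05), 7 of 9 bipolar genes (median -0.98, 4 under 0.05) and all 6 horizontal cell genes (median -0.51, 1 under 0.05). They were positive for all 9 microglial genes (median 0.27), all 8 genes of dividing cells (median 0.31) and 7 of 8 Müller glia genes (median 0.28). The sum of the dividing cell genes was 2443 CPM in wild-type P4 replicate 1, within the Kir2.1 range of 2039 to 2534 CPM, and 896 CPM in replicate 2. Values were negative for 8 of 11 amacrine (median -0.12), 7 of 10 rod (-0.28) and 3 of 4 pigment epithelium genes (-0.49). They were positive for 5 of 7 cone (0.09) and 3 of 5 astrocyte genes (0.21). The 13 became 4 without Kir2.1 P4 replicate 2, where the median was -0.60, and 5 without wild-type P4 replicate 1, and all 17 stayed negative without any 1 of the 5 P4 libraries. Kir2.1 P4 replicate 2 had a summed level of 613 CPM over the 17 genes, and Kir2.1 P4 replicates 1 and 3 had 1288 and 1413 CPM. Rbpms was at 29.6 ± 14.6 CPM (SD, n = 3) in Kir2.1 and 74.9 ± 18.5 CPM (SD, n = 2) in wild type at P4, Slc17a6, the vesicular glutamate transporter of ganglion cells, at 17.7 ± 9.60 and 43.1 ± 18.8 CPM, and Nefl, the light neurofilament, at 130 ± 63.1 and 262 ± 108 CPM. Pou4f2, the gene of Brn3b, was at 9.28 ± 4.37 and 16.9 ± 4.999 CPM. At P8, 0 of 17 were called, with a median of -0.30.

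With age, 13 of the 17 ganglion cell genes fell in wild type (median -1.70), against the 3.58% of all genes called lower. In Kir2.1, 12 fell and 2 rose (median -1.46), namely Isl1, a homeobox gene that bipolar cells also express, and Nefh, the heavy neurofilament, against 8.73% of all genes called lower and 7.93% higher. Among the 9 subtype markers the counts were 1 lower in wild type, and 1 lower and 1 higher in Kir2.1. The RNA-binding gene Rbpms fell by 3.55 ± 0.58 on the log2 scale in wild type (edgeR adjusted p = 0.00422) and by 2.34 ± 0.54 in Kir2.1 (edgeR adjusted p = 0.0121). Whether the lists differed in their change was not tested.

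A second list held 27 other genes of ganglion cell subtypes, of which 25 passed the filter and Trhr and Hoxd10 did not. Between genotypes 0 of 25 were called at either age, with medians of -0.34 at P4 and -0.12 at P8. The lowest at P4 were Pou4f3 (-2.27) and Irx4 (-2.24), both transcription factors, and the highest were Fes (0.53) and Zic1 (0.51). At P8 the lowest were Penk (-1.10), the enkephalin precursor, and Neurod2 (-0.84), and the highest were Adcyap1 (1.77), the gene of the peptide PACAP, and Isl2 (0.95).

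With age, 9 of the 25 fell in wild type, and 6 fell and 1 rose in Kir2.1, beside 3.58% of all genes lower in wild type and 8.73% lower and 7.93% higher in Kir2.1. Tbx20, a T-box factor of intrinsically photosensitive cells, fell by 5.99 ± 0.96 on the log2 scale in wild type and by 4.75 ± 0.91 in Kir2.1 (edgeR adjusted p = 0.00392 and 0.00425). Eomes, the T-box factor also called Tbr2, fell by 3.07 ± 0.28 and by 2.88 ± 0.27 (edgeR adjusted p = 0.000171 and 7.15e-05). Opn4, melanopsin, fell by 4.69 ± 0.88 and by 4.29 ± 0.87 (edgeR adjusted p = 0.00911 and 0.00575). Lypd6 fell by 1.83 ± 0.30 and by 2.22 ± 0.28, and Serpine2, a serine protease inhibitor, by 1.45 ± 0.29 and by 1.104 ± 0.27. Adcyap1 fell by 4.37 ± 0.73 in wild type (edgeR adjusted p = 0.0046) and Zic1 by 1.32 ± 0.33 in Kir2.1 (edgeR adjusted p = 0.0165). Irx4 fell by 4.89 ± 1.1 in wild type (edgeR adjusted p = 0.0259), and Col25a1, a membrane collagen, rose by 1.85 ± 0.57 in Kir2.1 (edgeR adjusted p = 0.0439). Drd4, a dopamine receptor, had the highest values, 2.01 in wild type and 1.9 in Kir2.1, and passed in neither (edgeR adjusted p = 0.204 and 0.093).

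**Figure D3:**
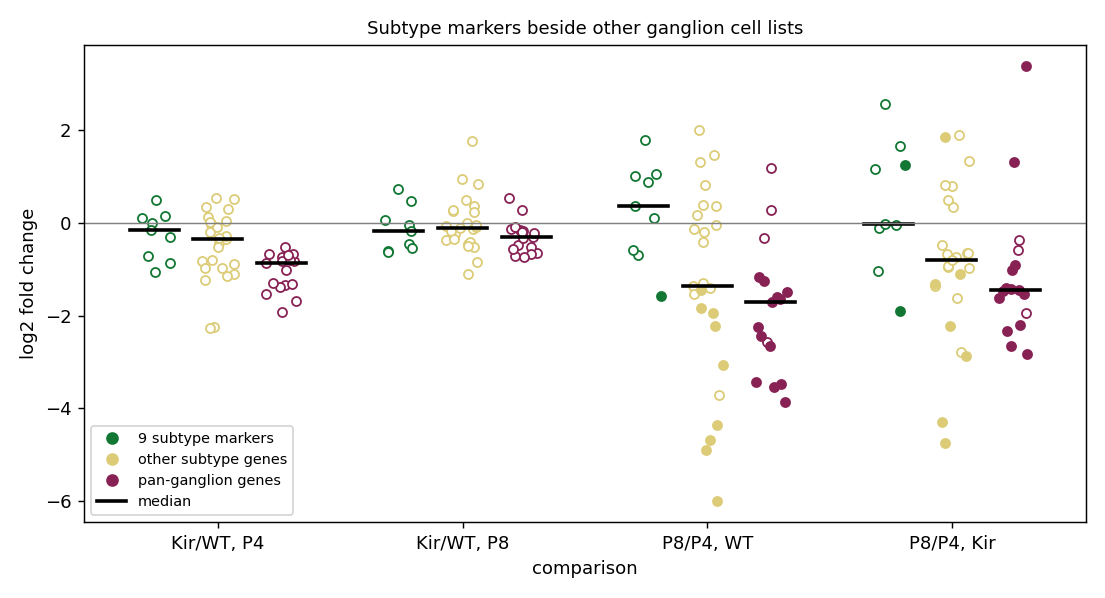
Log2 fold change (vertical axis) of each gene of 3 lists in the 4 comparisons (horizontal axis), where filled points passed an adjusted p of 0.05 in edgeR and bars are medians. At P4 all 17 pan-ganglion genes lie below 0 while the 9 subtype markers lie on both sides, and with age the medians of the other lists in wild type are -1.37 and -1.70 beside 0.35 for the 9.

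The markers were also set against the ganglion cell genes of the same library, as the log2 CPM of a marker minus the mean log2 CPM of the 17 genes. That mean differed between genotypes by -1.16 at P4 and by -0.19 at P8, and between ages by -1.97 in wild type and by -0.99 in Kir2.1. The P4 value was -0.72 without Kir2.1 P4 replicate 2. At P4 the relative level was higher in Kir2.1 by 1.63 for Jam2, 1.34 for Foxp2, 1.26 for Satb1, 1.17 for Foxp1, 0.97 for Tbr1 and 0.76 for Spp1, with no overlap between the groups. On this scale 71.3% of all genes were higher and 0.159% lower without overlap, so that 6 of 9 is near the background. It overlapped for Cartpt (0.61), Kcng4 (0.58) and Mmp17 (0.37). At P8 the differences ran from -0.29 for Cartpt to 1.183 for Jam2, and those of all 9 overlapped (2.09% of all genes were higher and 0.814% lower without overlap).

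Over age in wild type the relative level was higher at P8 by 3.59 for Kcng4, 3.50 for Cartpt, 2.70 for Jam2, 2.39 for Mmp17, 2.06 for Satb1, 2.01 for Tbr1 and 1.38 for Foxp1, without overlap, and it overlapped for Spp1 (0.95) and Foxp2 (0.41). These 7 of 9 stand beside 87.8% of all genes, with 0.616% lower without overlap. In Kir2.1 it was higher by 3.40 for Kcng4, 2.60 for Cartpt and 1.997 for Mmp17 and lower, at -0.91, for Foxp2, again without overlap. Jam2 was higher by 2.25 there, also without overlap. The ages overlapped for Tbr1 (0.97), Satb1 (0.95), Foxp1 (0.89) and Spp1 (0.0111). In Kir2.1, 32.7% of all genes were higher and 1.62% lower without overlap. With Isl1 and Nefh, which rose, taken out of the 17 (chosen after seeing the data), the mean fell by 1.45 in Kir2.1 with age, the relative value of Foxp2 was -0.45 and its groups overlapped, while Kcng4, Cartpt, Mmp17 and Jam2 stayed higher without overlap. Against these 15 genes, 61.7% of all genes were higher without overlap. These are descriptions with no test, and a marker whose own CPM was level, such as Satb1, carries the change of the 17 genes in its relative value.

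Levels of genes of other retinal cells moved with some of the markers. For Mmp17, wild-type P8 replicate 3, the lowest library, had a summed level of 1679 CPM over 11 amacrine genes, and replicates 1 and 2, the highest, had 4080 and 2962 CPM. In Kir2.1 at P8 the sum was 1380 CPM in replicate 2, where Mmp17 was lowest, and 2088 and 2243 CPM in replicates 1 and 3. At P4 the sums were 2510 to 3068 CPM in wild type and 2685 to 2998 CPM in Kir2.1. Among the amacrine genes Chat was at 0 in 1 library and Ptf1a in 5. The part of these cells in the Mmp17 values was not tested.

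For Jam2, the rod sum was 810 CPM in wild-type P8 replicate 1, where Jam2 was at 35.5 CPM, and 3283 and 7351 CPM in replicates 2 and 3, where Jam2 was at 125 and 170 CPM. The Kir2.1 P8 libraries had rod sums of 6876 to 7094 CPM. At P4 the rod sums were 243 and 1265 CPM in wild type, where Jam2 was level at 56.3 and 53.5 CPM, and 470 to 801 CPM in Kir2.1. The 9 bipolar genes summed at P8 to 666, 1252 and 2260 CPM for the wild-type libraries and to 1689, 1922 and 1445 CPM for the Kir2.1 libraries, in replicate order, with Jam2 highest in Kir2.1 replicate 2. At P4 it was 373 and 605 CPM in wild type and 416, 558 and 426 CPM in Kir2.1.

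The sum over 10 vascular genes was 574 and 440 CPM in wild type and 599.5, 739 and 444 CPM in Kir2.1 at P4, highest in Kir2.1 replicate 2, which had the most Jam2 at P4. Between genotypes at P4, where Jam2 was at 0.49, the log2 fold change was negative for 9 of the 10 vascular genes, 4 of them without overlap. It was also negative for 7 of the 9 bipolar and 7 of the 10 rod genes. Between genotypes at P8, where Jam2 was at 0.73, it was positive for 8 of the 10 vascular genes (median 0.43). There it was also positive for 8 of the 9 bipolar genes (median 0.19) and all 10 rod genes (median 0.88), with 0 called. At P8 the vascular sum was 512, 395 and 334 CPM in wild type and 542, 366 and 338 CPM in Kir2.1. In wild type it was highest in replicate 1, where Jam2 was lowest. A sum follows its most abundant genes, so it can move apart from the median gene. With age in Kir2.1, 3 of the 10 vascular genes rose and 1 fell (median 1.81), 8 of the 9 bipolar genes rose (median 2.67) and all 10 rod genes rose (median 3.57), beside 7.93% of all genes called higher and 8.73% lower. No rod or vascular gene was at 0 in any library, and the bipolar gene Grm6 was at 0 in 1. The part of these cells in the Jam2 values was not tested.

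For Spp1, the sum over 9 microglial genes was 439 and 243 CPM in wild type and 446, 321 and 526 CPM in Kir2.1 at P4, and 120, 186 and 198 CPM in wild type and 365, 115 and 197 CPM in Kir2.1 at P8. The library with the least Spp1, wild-type P8 replicate 1, had the second lowest microglial sum, and none of the 9 microglial genes was at 0 in any library. Kir2.1 P8 replicate 1 had the highest microglial sum at P8, yet its Spp1 (3.31 CPM) was below wild-type P8 replicates 2 and 3 (9.19 and 7.97 CPM). For Foxp2, 8 genes of dividing cells summed to 896 to 2534 CPM at P4 and to 94.9 to 137 CPM at P8, so that both were lower at P8 in every library. Pigment epithelium genes reached at most 24.5 CPM in sum, with Rpe65 at 0 in 8 libraries and Mlana in 9. The part of these cells in the values of Spp1 and Foxp2 was not tested.

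**Figure D4:**
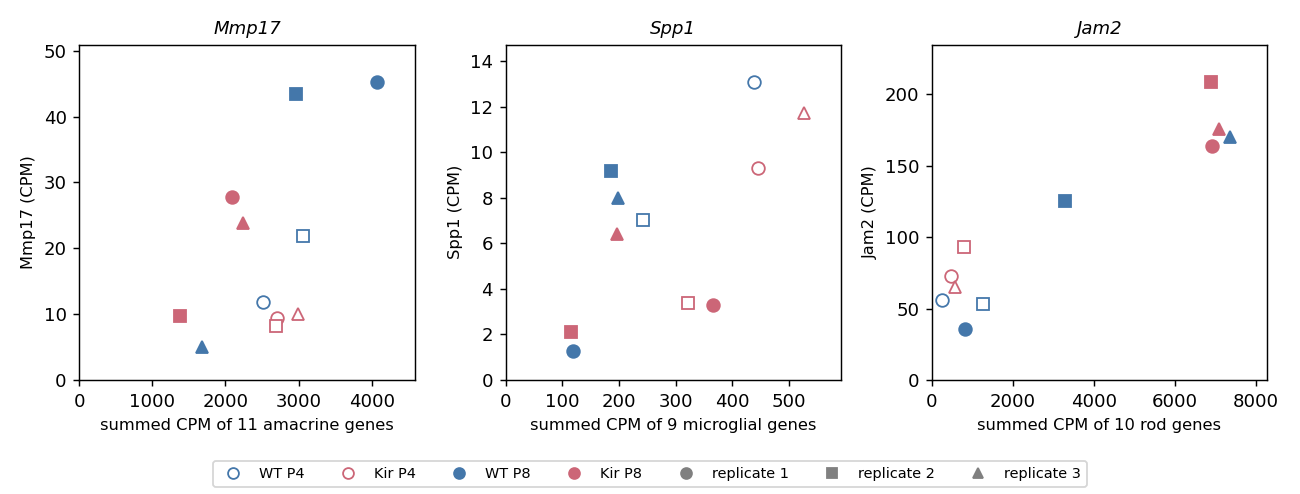
CPM of Mmp17, Spp1 and Jam2 (vertical axes) against the summed CPM of 11 amacrine, 9 microglial and 10 rod genes (horizontal axes) in the 11 libraries, with open symbols for P4, filled for P8, and shape for the replicate. Wild-type P8 replicate 1 is low in both rods (810 CPM) and Jam2 (35.5 CPM), and wild-type P8 replicate 3 is low in both amacrine genes (1679 CPM) and Mmp17 (4.96 CPM).

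Genes with the most similar profile were found by the root mean square difference of centred log2 CPM over the 11 libraries, among 15993 tested genes with a mean of at least 1 CPM. Smaller values mean a closer match, and a gene that varies little is closer to many others. Satb1 had the closest neighbours, Fip1l1 (0.0604) and Ube3c (0.0628). Foxp1 was nearest to Gm43692 (0.142) and Spon2 (0.154), Jam2 to Spata1 (0.143) and Ankrd33b (0.157), Foxp2 to Tox2 (0.152) and ENSMUSG00000104475 (0.207), and Mmp17 to Pappa2 (0.171) and Tgfb3 (0.224). Tbr1 was nearest to Ptger4 (0.295) and Fam228a (0.331), Kcng4 to Ppp1r42 (0.349) and F730016J06Rik (0.430), Spp1 to Gm26871 (0.428) and Ltc4s (0.475), and Cartpt to Adamtsl3 (0.436) and ENSMUSG00000071567 (0.478).

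No marker was among the nearest 2 genes of another. Among the markers themselves, the closest pair was Satb1 and Foxp1 (0.324) and the most distant was Kcng4 and Foxp2 (2.1). The next pairs were Satb1 and Tbr1 (0.540), Cartpt and Kcng4 (0.700), Foxp1 and Tbr1 (0.714) and the F-type pair Foxp1 and Foxp2 (0.769). Most of the possible pairs join markers of different subtypes, so this order says little about the subtypes.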

How the data were processed

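RNA-seq counts of 11 mouse retina libraries were used. The authors deposited 1 table of whole-number counts per Ensembl gene for each library. Per the submitters' processing notes, the tools were cutadapt 1.18, STAR 2.5.0c, SAMtools 1.9, bedtools 2.26.0, HTSeq 0.6.1 and DESeq2, with build mm10. The annotation and strand setting are not given in the sources used here. Lines that name no gene held 74.6% to 79.8% of each library's records and were left out. Per the file headers, the authors' deposited tables of Kir2.1 against wild type hold a mean normalized signal, a log2 fold change, its standard error, a score and p-values. These are quoted only as theirs.

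Groups came from the titles. Symbols were found for 46488 of 47069 identifiers. Counts were filtered with filterByExpr, scaled by TMM (factors 0.964 to 1.05) and fitted in edgeR 4.0.16 (R 4.3.3) with 4 group means over 11 libraries (7 residual degrees of freedom). Standard errors were derived from the fold change and its F statistic. p-values were adjusted by Benjamini-Hochberg over all 18188 genes, with a threshold of 0.05. The median standard error was 0.263 to 0.293 between 2 groups. Log2 CPM used a prior count of 2. Coordinates and exon lengths came from GENCODE M21 (GRCm38). The fit was tested on simulated data.

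The members and lists were chosen with earlier results of these data known. The text names all 9 markers, the 2 nearest genes of each, and Rbpms, Pou4f2, Slc17a6 and Nefl. Of the other subtype genes it names the 2 highest and 2 lowest per comparison at a mean of at least 1 CPM, and up to 6 of those called with the smallest p. Isl1 and Nefh are named because they rose. Alternatives were DESeq2 1.42.0 (its size factors and its test), no filter, a replicate block, only the compared groups, and each library left out in turn.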

Additional observations from a re-analysis of the deposited data

How the results depend on the processing

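Of 512 values of the 9 markers under the alternatives, 453 kept their direction and side of the threshold, 21 passed it anew, 9 lost it and 29 turned sign. Genes called in edgeR became 33 with DESeq2 and 339 without a filter for the genotypes at P4, 3 and 447 at P8, and 136 without a filter for the difference between ages. For age in wild type they were 1580 with DESeq2, 2058 without a filter and 113 with only the compared groups. Markers called without a filter were 1 at P4 (Cartpt, -1.06, edgeR adjusted p = 0.000987) and 1 at P8 (Jam2, 0.72, edgeR adjusted p = 0.000491). Their fold changes hardly moved, while the standard errors went from 0.58 to 0.23 for Cartpt and from 0.39 to 0.15 for Jam2. Markers called for age were 2 (DESeq2), 5 (no filter) and 0 (compared groups) in wild type, and 4, 6 and 5 in Kir2.1. The cause was not tested.

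Without 1 library each, genes called ran from 0 to 6 for the genotypes at P4, 0 to 219 at P8, 0 to 1 for the difference between ages, 163 to 1339 for age in wild type and 1764 to 2169 in Kir2.1, and markers called for age from 0 to 2 in wild type and 1 to 2 in Kir2.1. Log2 values that turned sign ran, at P4, from -1.85 to 0.83 for Cartpt (without wild-type replicate 2), -1.76 to 1.12 for Kcng4 and -0.0775 to 0.42 for Foxp2 (the same library), -0.68 to 0.20 for Spp1 and -0.0535 to 0.0826 for Foxp1. At P8 they ran from -0.11 to 0.0616 for Satb1, -0.34 to 0.79 for Kcng4 and -0.94 to 0.33 for Tbr1. For the difference between ages they ran from -1.27 to 1.40 for Cartpt, -0.25 to 0.65 for Mmp17, -0.87 to 0.0746 for Spp1, -1.05 to 1.83 for Kcng4, -0.79 to 0.48 for Tbr1 and -0.19 to 0.70 for Jam2. For age they ran from -0.0288 to 0.16 for Satb1 and -0.53 to 0.76 for Tbr1 in wild type, and from -0.19 to 0.29 for Tbr1 in Kir2.1. The mean of the 17 ganglion cell genes ran from -1.44 to -0.72 at P4 and from -0.53 to 0.0758 at P8. Of the 17, 4 to 15 had an unadjusted p under 0.05 at P4, and 6 to 9 markers had a higher relative level without overlap there (both chosen after seeing the data). With Isl1 and Nefh left out of the 17, the relative level at P8 turned sign for Mmp17 (0.0635) and Tbr1 (0.0153). The groups then overlapped for Tbr1 at P4 (5 of 9 markers higher without overlap, beside 66.8% of all genes), and no longer did for Foxp2 with age in wild type and for Satb1 and Foxp1 with age in Kir2.1, each higher at P8. The genotype log2 fold change of Foxp2 at P8 kept its sign without 1 library each, from -0.38 to -0.0466.

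Same-numbered libraries had correlations of deviations from the group mean of -0.08 to 0.14 over 15 pairs, 3 of them over 0.1. Libraries of other numbers had -0.147 to 0.143 over 30 pairs, 3 of them over 0.1. Deviations within groups of 2 or 3 libraries are tied to each other, so these values cannot decide whether the replicate numbers pair the samples. With the replicate block, Tbr1 turned to 0.0403 at P4 and to 0.0357 for age in Kir2.1, Cartpt passed for age in Kir2.1 (1.82, edgeR adjusted p = 0.0463), Jam2 did not (1.24, edgeR adjusted p = 0.0515), and 558 genes were called for age in wild type. Kcng4 had the fewest counts, 0 to 49, and whether depth or replicate spread set its errors was not tested. Groups of 2 and 3 libraries limit every comparison.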
